A study of Mus musculus with 12 samples.

Results

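Hepcidin and the transcripts of iron handling were followed in mouse liver as 10 genes: Hamp, Hamp2, Hjv, Tfr2, Tfrc, Trf, Fth1, Ftl1, Slc40a1 and Bmp6. They were taken by symbol in the expression table, each as 1 of its 57010 rows. RNA sequencing covered 12 livers, 1 library per mouse. In the selenium group, 6 mice were gavaged daily with selenium-enriched Aspergillus oryzae A02, a food fungus, in saline, at 0.5 mg selenium per kg. In the control group, 6 mice are labelled as having had no treatment. All were wild-type male C57BL/6J mice on a normal diet, 6 weeks old after 7 days of acclimatization. The design text speaks of 8 weeks of feeding and the sample descriptions of 14 weeks, and the protocol of 10 mice per group. The treatment joined fungus and selenium, whose separate effects cannot be told apart, and the labels do not say whether control mice were gavaged. Values are TPM, which is transcript abundance corrected for length and given as a share of each library, so the depth behind them is unknown.

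Hepcidin is a small peptide hormone made by hepatocytes that binds ferroportin, the cellular iron exporter, and causes its degradation. Its gene is controlled mainly by bone morphogenetic proteins (BMPs) from sinusoidal endothelial cells, which act through hepatocyte receptors and SMAD proteins with hemojuvelin as co-receptor, and by interleukin-6 through STAT3. Inside cells, iron regulatory proteins bind stem-loops in the mRNAs of ferritin, ferroportin and the transferrin receptor. This blocks translation of the ferritin mRNAs and stabilizes the receptor mRNA when iron is scarce.

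The libraries carry both a liver label and a hepatocyte label. All 9 hepatocyte markers were expressed, with a summed level of 38660 to 57991 TPM in selenium livers and 34341 to 58661 TPM in control livers. Markers of Kupffer, endothelial, stellate and blood cells were also present, so the values are those of whole liver. In such bulk samples, fewer cells of a type and less RNA per cell cannot be told apart. The clock output gene Dbp placed 4 livers (selenium 1 and 5, control 5 and 6) at 15.7 to 53.6 TPM and the other 8 at 0.72 to 1.44 TPM, a state that lies across both groups. Controls 5 and 6 also stood at the ends of the range of several iron genes, as described below.

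Hemojuvelin mRNA fell in the selenium livers, and no other iron gene of the 10 passed the test. Hjv averaged 14.3 ± 0.544 TPM in selenium livers and 23.7 ± 4.81 TPM in control livers (SD, n = 6 each), a ratio of 0.604. Hamp itself averaged 2540 ± 1050 TPM in selenium livers and 3074 ± 2145 TPM in control livers, a difference well within the spread between mice. Of the 9 genes above the filter on low values, 3 had positive and 6 had negative log2 changes, with a median of -0.20, beside a median of -0.03 over all 9980 genes tested. With limma's moderated test and Benjamini-Hochberg adjustment over all tested genes, 1 of the 9 passed at 0.05, downward, where 0.311% of all tested genes passed downward and 0.331% in either direction. Over all genes the calls were 2 higher and 31 lower, a split that became 53 higher and 41 lower with median-of-ratios scaling. Bmp6, the tenth gene, lay below the filter in all 12 livers.

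**Figure D1:**
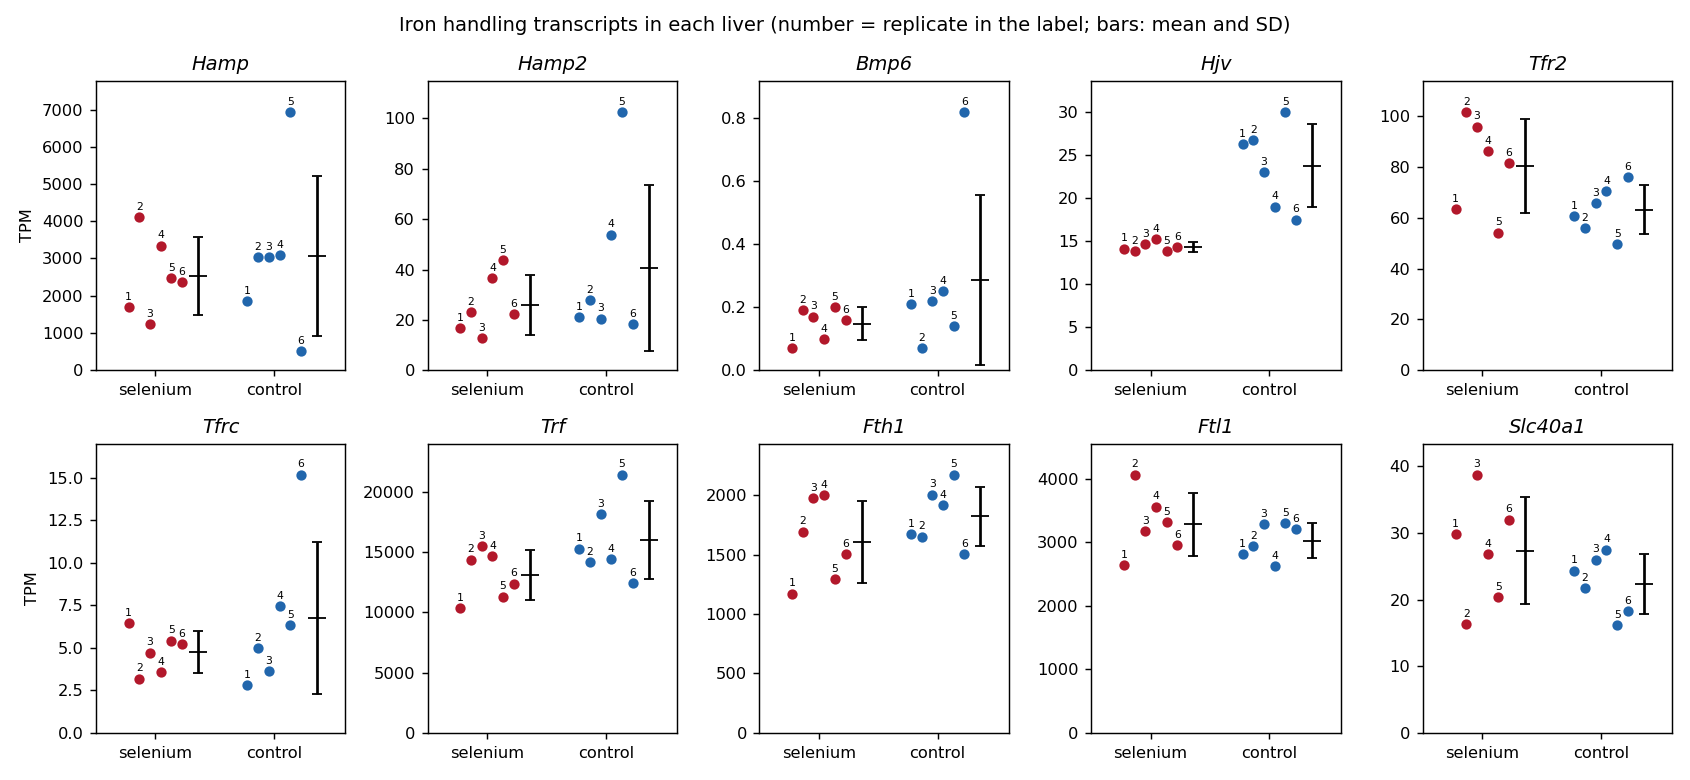
TPM of the 10 iron genes in each liver, with selenium livers in red and control livers in blue, numbered by replicate, and the mean ± SD in black (n = 6 each). The selenium livers lie between 13.8 and 15.2 TPM for Hjv, below all control livers, while the groups overlap for the other 9 genes.

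Per length, transferrin was the most abundant of these transcripts in every liver and Bmp6 the least. In selenium livers the order of mean levels in TPM was Trf, Ftl1, Hamp, Fth1, Tfr2, Slc40a1, Hamp2, Hjv, Tfrc and Bmp6. In control livers Hamp stood above Ftl1, and Hamp2 and Hjv both stood above Slc40a1. Hamp and Ftl1 differed by less than their spread in both groups, and so did Slc40a1 and Hamp2. The 10 transcripts together made up 2.07 ± 0.327% of all TPM in selenium livers and 2.41 ± 0.562% in control livers (SD, n = 6 each).

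Hamp encodes hepcidin, and Hamp2 is a mouse duplicate of it that lies nearby on the same chromosome. The coding sequences are 92.5% identical (236 of 255 aligned bases), so reads assigned to either are uncertain where the counting could not separate them. The promoter letters are shown because they are where hepcidin control acts. They are the 150 bases before each start site, from RefSeq on build GRCm38.p6, minus strand, at chr7:30944030-30944179 for Hamp and chr7:30924182-30924331 for Hamp2. Capitals mark the letters GGCGCC, the core of the BMP-responsive element, and TTCNNNGAA, the spacing bound by STAT proteins.
Hamp: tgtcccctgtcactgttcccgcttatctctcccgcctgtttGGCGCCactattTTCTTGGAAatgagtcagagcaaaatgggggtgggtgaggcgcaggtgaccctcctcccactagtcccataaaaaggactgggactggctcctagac
Hamp2: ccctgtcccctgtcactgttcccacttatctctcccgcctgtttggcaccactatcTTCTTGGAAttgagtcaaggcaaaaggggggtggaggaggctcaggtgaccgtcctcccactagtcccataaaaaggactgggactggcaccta
These stretches align with 88.2% identity, at 135 of 153 positions. The GGCGCC run stands in the Hamp stretch and is not in these letters of Hamp2, while TTCTTGGAA stands in both. Searched on both strands in 32851 promoter windows, GGCGCC was present in 11.9% and TTCNNNGAA in 8.3%. These windows begin 250 bases before the start site and are longer than the stretches shown. A match alone is common in such windows and is a description of letters.

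Hamp varied more between livers than between groups. In selenium livers it ranged from 1247 TPM (selenium 3) to 4109 TPM (selenium 2) with a median of 2420 TPM. In control livers it ranged from 504 TPM (control 6) to 6933 TPM (control 5) with a median of 3032 TPM. All selenium livers thus lay inside the control range, and the highest and lowest of all 12 livers were both controls. The log2 change was -0.02 (SE 0.49, 95% interval -1.06 to 1.03, limma adjusted p = 0.991), an interval that leaves room for changes of either sign. The estimate was 0.29 without control 5 and -0.47 without control 6.

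Hamp2 was far scarcer. It ranged from 12.9 TPM (selenium 3) to 43.8 TPM (selenium 5) in selenium livers, with a median of 22.6 TPM. In control livers it ranged from 18.3 TPM (control 6) to 103 TPM (control 5), with a median of 24.5 TPM. The groups overlapped over most of their range, and the log2 change was -0.45 (SE 0.40, adjusted p = 0.585). It was -0.13 without control 5, -0.28 without selenium 3 and -0.12 with array weights. The ratio of Hamp to Hamp2 was 56.4 to 178 in selenium livers (median 99.2) and 27.6 to 148 in control livers (median 77.3), with the lowest value in control 6.

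Across the 12 livers Hamp and Hamp2 went together in rank. Spearman's rho was 0.811 (permutation p = 0.00205, 0.0225 after adjustment over 11 relations examined), and Pearson's r of the log2 values was 0.690 (permutation p = 0.0154, adjusted 0.170). Without controls 5 and 6, the livers farthest from the median of Hamp, r was 0.612 (permutation p = 0.0604). Within groups of 6, r was 0.660 in selenium livers and 0.744 in control livers. The coding sequences are 92.5% identical, Hamp exceeded Hamp2 by 27.6 to 178 times, and the transcripts have 410 and 437 bases. The part of shared reads and of length in this relation was not tested. Hamp and Tfrc gave r = -0.538 (permutation p = 0.0802, adjusted 0.294) and rho = -0.231. Without controls 5 and 6 that r was -0.188, and within groups of 6 it was -0.700 in selenium livers and -0.532 in control livers. Hamp and Bmp6 gave r = -0.690 (permutation p = 0.0427, adjusted 0.235) over 12 livers and rho = -0.235. Without controls 5 and 6 that r was 0.107, and within groups it was 0.180 in selenium livers and -0.880 in control livers, so the relation rests on those livers. Hamp and Hjv gave r = 0.320 (permutation p = 0.325, adjusted 0.470) and rho = 0.238. With group means subtracted that r was 0.629 (permutation p = 0.0324, adjusted 0.119), and without controls 5 and 6 it was 0.103. Within groups it was -0.106 in selenium livers and 0.723 in control livers. None of the 11 relations passed the adjusted threshold by Pearson's r.

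**Figure D2:**
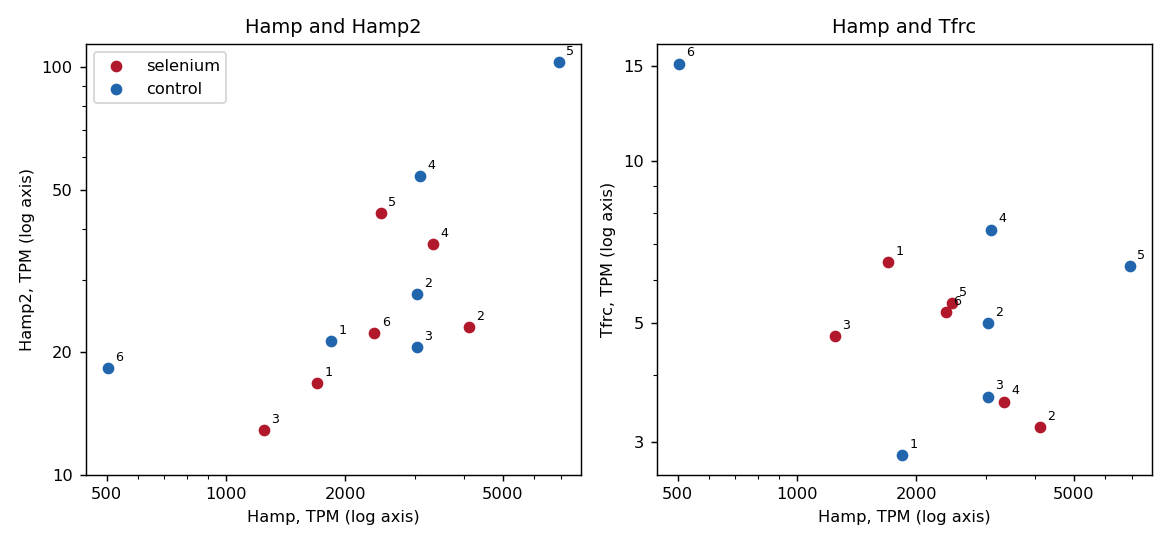
Hamp2 (left) and Tfrc (right) against Hamp in TPM on log axes, 1 point per liver, selenium in red and control in blue, numbered by replicate. Control 5, with 6933 TPM of Hamp, has the highest Hamp2, and control 6, with 504 TPM of Hamp, has the highest Tfrc.

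The genes whose pattern over the 12 livers was most like that of Hamp, by Pearson's r after subtraction of group means, were Ttc32 (r = 0.929), Gtf2h5 (0.921), Fbxo8 (0.914), ENSMUSG00000120732 (0.907) and Atp5j (0.905). None of them belongs to the iron lists. Hamp2 followed at rank 281 of the tested genes with r = 0.717. Transcript length moves with this ranking: the 50 genes most like Hamp had a median length of 1868.5 bases (48 with a length), against 3026.5 bases for all tested genes, and Hamp has 410 bases. The median log2 deviation of the 284 tested genes under 600 bases was 0.31 in control 5, which had the highest Hamp, -0.04 in control 6, which had the lowest, and -0.35 in selenium 1. The part of length in the Hamp values was not tested, and a correction for it put the log2 change of Hamp at 0.18.

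The ligand Bmp6, the main BMP signal for hepcidin, was near the floor of the table. It ranged from 0.07 to 0.20 TPM in selenium livers (median 0.165 TPM) and from 0.07 to 0.82 TPM in control livers (median 0.215 TPM). Control 6 alone held 0.82 TPM, and the other 5 controls 0.07 to 0.25 TPM. In a fit without the filter its log2 change was -0.14 (SE 0.11, adjusted p = 0.644), a scale on which the pseudocount of 1 exceeds every value. The related ligand Bmp2 averaged 0.857 ± 0.293 TPM in selenium livers and 1.11 ± 0.593 TPM in control livers (SD, n = 6 each; limma adjusted p = 0.697). Sinusoidal endothelial cells are the known source of both ligands. The summed level of 11 of their markers was 31.3 to 57.1 TPM in selenium livers and 27.3 to 64.1 TPM in control livers. Of the 7 tested markers, 0 passed limma's adjustment and 1 was lower at an unadjusted p under 0.05, where 11.4% of all tested genes were.

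Hjv encodes hemojuvelin, the co-receptor that binds BMPs at the hepatocyte surface and is needed for normal hepcidin expression. Its level was 14.11, 13.82, 14.63, 15.23, 13.81 and 14.33 TPM in selenium 1 to 6. In control 1 to 6 it was 26.20, 26.67, 22.96, 19.00, 29.97 and 17.48 TPM. The groups did not overlap: the highest selenium liver lay below the lowest control liver, a pattern held by 1.47% of all tested genes in the downward direction. The log2 change was -0.67 (SE 0.13, 95% interval -0.94 to -0.39, limma adjusted p = 0.0439).

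The Hjv log2 change was -0.76 to -0.59 in the 27 alternative limma fits. Its sign could not change where livers were left out, because the groups do not overlap. Nor could it where only the filter, the variance model or the replicate block differed, which left the estimate at -0.67. The adjusted p of Hjv ran from 0.0155 to 0.118 and was under 0.05 in 9 of the 27, so the call stands close to the threshold. Leaving out any 1 liver other than control 6 ended the call, with log2 changes of -0.72 to -0.60 in those 11 fits. Without control 6 the change was -0.75 (adjusted p = 0.0190). Within the 8 livers of low Dbp, Hjv averaged 14.5 TPM in selenium livers and 23.7 TPM in control livers, a log2 difference of -0.66. Within the 4 of high Dbp, 2 per group, it averaged 14.0 TPM in selenium livers and 23.7 TPM in control livers, a difference of -0.68. Both differences had to be negative, because the groups do not overlap. In the authors' deposited table the log2 change, turned to selenium over control, was -0.67 with an adjusted p of 0.00340, where 2.9% of the tested genes pass downward. The share of TPM from mitochondrial-encoded transcripts moved with the groups, at 11.6 ± 1.97% in selenium livers and 17.3 ± 3.43% in control livers (SD, n = 6 each). With TPM rescaled without them the limma adjusted p of Hjv was 0.0254. That rescaling also moved the median log2 change of all tested genes from -0.03 to -0.11 and the lower calls from 31 to 184. The adjusted p of Hjv was 0.0540 with median-of-ratios scaling and 0.0591 with quantile normalization. The summed level of 7 stellate cell markers was 54.5 to 101 TPM in selenium livers and 64.4 to 137 TPM in control livers. All 5 tested markers had negative changes, as had 5451 of all 9980 tested genes. Of the 5, 0 passed limma's adjustment and 2 were lower at an unadjusted p under 0.05, where 11.4% of all tested genes were. Most of the summed level came from Dcn and Ecm1, while Lrat, the defining retinoid enzyme of these cells, held at most 0.76 TPM. The part of stellate cells in the Hjv result was not tested.

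The selenium livers lay close to each other in Hjv. Its coefficient of variation was 3.80% in selenium livers and 20.3% in control livers. Among the 5271 genes with a mean of at least 5 TPM in both groups, the median was 20.2% in selenium livers and 16.4% in control livers. Only 3 of these genes, Hjv included, had a selenium coefficient at or below 3.80%, which is 0.0569% of them. This feature was singled out after the values were seen and carries no test.

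**Figure D3:**
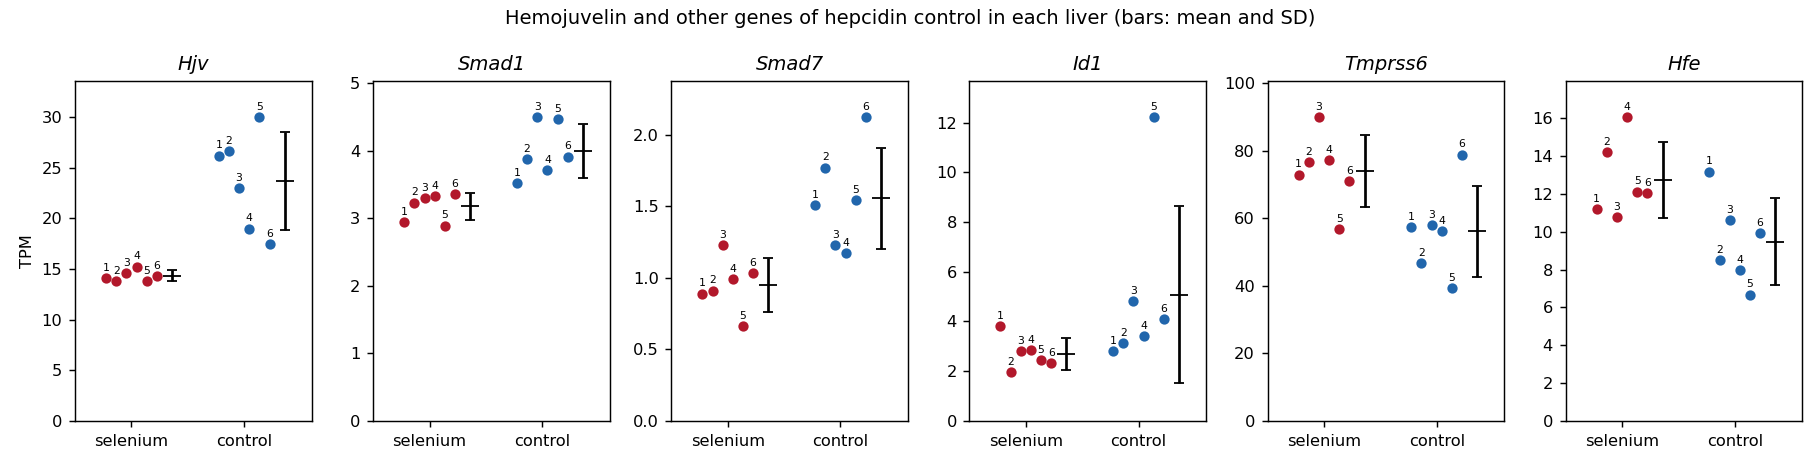
TPM of Hjv, Smad1, Smad7, Id1, Tmprss6 and Hfe in each liver, selenium in red and control in blue, numbered by replicate, with the mean ± SD in black (n = 6 each). Hjv and Smad1 are lower in all 6 selenium livers than in any control liver, as are 1.47% of all tested genes. Id1 has 1 control liver at 12.2 TPM.

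Around hemojuvelin, no further gene of hepcidin control passed the adjusted test. Of 21 genes of hepcidin signalling, 19 were tested. Of these, 12 had positive and 7 negative log2 changes (median 0.10), 4 were higher and 1 lower at an unadjusted p under 0.05, and 0 passed limma's adjustment. Over all tested genes, 7.01% were higher and 11.4% lower at the unadjusted level. Smad1, which carries the BMP signal to the nucleus, averaged 3.17 ± 0.205 TPM in selenium livers and 4.00 ± 0.400 TPM in control livers (log2 change -0.26, SE 0.09, adjusted p = 0.172). Its groups did not overlap, a pattern held downward by 1.47% of all tested genes. Hfe, the hemochromatosis protein that joins the iron-sensing receptor complex, averaged 12.7 ± 2.01 TPM in selenium livers and 9.48 ± 2.29 TPM in control livers (0.41, SE 0.15, adjusted p = 0.182). Tmprss6, the protease that cleaves hemojuvelin from the cell surface, averaged 74.1 ± 10.7 TPM in selenium livers and 56.1 ± 13.4 TPM in control livers (0.41, SE 0.16, adjusted p = 0.189).

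Of 8 transcriptional targets of the BMP-SMAD pathway, 5 were tested, with 2 positive and 3 negative log2 changes (median -0.36). None passed the adjustment, and 2 were lower at the unadjusted level, where 11.4% of all tested genes were. Smad7, a feedback inhibitor of the pathway, averaged 0.952 ± 0.187 TPM in selenium livers and 1.56 ± 0.353 TPM in control livers (log2 change -0.38, SE 0.11, adjusted p = 0.117). At these low levels the pseudocount weighs on the value, and with a pseudocount of 0.1 the change was -0.65. Id1, a transcriptional regulator that BMPs induce along with hepcidin, averaged 2.70 ± 0.640 TPM in selenium livers and 5.08 ± 3.57 TPM in control livers (-0.58, SE 0.25, adjusted p = 0.239). Its control mean rests on control 5 with 12.21 TPM, the liver with the highest Hamp, while the other controls held 2.81 to 4.82 TPM. The authors' deposited table calls Smad7 lower in selenium (log2 change -0.81) at an adjusted p of 0.00171, and Tmprss6 higher at 0.0163.

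Tfr2 encodes transferrin receptor 2, which senses iron-loaded transferrin on hepatocytes and is itself needed for normal hepcidin levels. It ranged from 54.2 to 102 TPM in selenium livers (median 83.95 TPM) and from 49.7 to 76.1 TPM in control livers (median 63.2 TPM). Selenium 2, 3, 4 and 6 lay above every control liver, and selenium 1 and 5, the livers of high Dbp, lay within the control range. The log2 change was 0.33 (SE 0.16, 95% interval -0.02 to 0.67, limma adjusted p = 0.307). Within low Dbp livers the difference was 0.52, with means of 91.4 TPM in selenium livers and 63.2 TPM in control livers (adjusted p = 0.0806). Within high Dbp livers, 2 per group, it was -0.07, with means of 58.8 TPM in selenium livers and 62.9 TPM in control livers. Those controls, 5 and 6, held the lowest and highest control values, 49.7 and 76.1 TPM. The authors' deposited table gives 0.47 with an adjusted p of 0.0300. There, 9.87% of the tested genes pass, 6.97% upward and 2.9% downward, and of the 9 iron genes Tfr2 passes upward and Hjv downward.

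Set against each other within a liver, Tfr2 was 3.92 to 7.36 times Hjv in selenium livers (median 5.68) and 1.66 to 4.36 times in control livers (median 2.59). The groups overlapped at selenium 5 and control 6. Both genes act upstream of hepcidin, and their log2 changes differed in sign.

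Tfrc encodes transferrin receptor 1, which takes up transferrin-bound iron and is scarce in liver. It ranged from 3.19 to 6.48 TPM in selenium livers (median 4.98 TPM) and from 2.83 to 15.19 TPM in control livers (median 5.68 TPM). Every selenium liver lay within the control range, and control 6 stood apart at 15.19 TPM from the other controls at 2.83 to 7.45 TPM. Its log2 change of -0.29 (SE 0.28, adjusted p = 0.630) became -0.04 without control 6 and -0.45 without control 1. The summed level of erythroid markers was also highest in control 6, at 4271 TPM, against 378 to 1494 TPM in selenium livers and 404 to 1282 TPM in the other control livers. Globin RNA made up nearly all of that sum. Alas2, which makes heme in erythroid cells, held 68.35 TPM in control 6, against 51.3 to 76.6 TPM in selenium livers and 33.9 to 71.6 TPM in the other control livers, and Slc4a1, the anion exchanger of red cells, held at most 0.51 TPM in any liver. The part of blood in the Tfrc value of control 6 was not tested.

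Trf encodes transferrin, the plasma iron carrier that hepatocytes secrete. It ranged from 10345 to 15482 TPM in selenium livers (median 13378 TPM) and from 12452 to 21422 TPM in control livers (median 14868 TPM). Selenium 1, 5 and 6 lay below every control liver, and controls 3 and 5 above every selenium liver. Between groups the log2 change was -0.28 (SE 0.16, 95% interval -0.63 to 0.07, adjusted p = 0.385). The difference was -0.12 within low Dbp livers (4 per group) and -0.59 within high Dbp livers (2 per group). Control 5, of high Dbp, held the highest Trf of all 12 livers. Quantile normalization gave a log2 change of -0.11. In the authors' deposited table the change has the other sign, 0.06 with an adjusted p of 0.811, and the median of that table over the tested genes is 0.06, against -0.03 here.

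Ferritin stores iron in a shell of heavy and light chains, encoded by Fth1 and Ftl1. Fth1 ranged from 1171 to 2000 TPM in selenium livers (median 1600 TPM) and from 1505 to 2171 TPM in control livers (median 1794 TPM). Selenium 1 and 5 lay below every control liver, and the other 4 within the control range. The log2 change was -0.20 (SE 0.16, adjusted p = 0.538), and -0.11 without selenium 1. It was -0.02 within low Dbp livers (4 per group) and -0.56 within high Dbp livers (2 per group). Ftl1 ranged from 2634 to 4061 TPM in selenium livers (median 3243 TPM) and from 2618 to 3299 TPM in control livers (median 3069 TPM), with a log2 change of 0.11 (SE 0.13, adjusted p = 0.690). That change was 0.05 without selenium 2, 0.07 without control 4, 0.17 without selenium 1, 0.22 with quantile normalization and 0.01 without mitochondrial-encoded genes. Selenium 2, 4 and 5 lay above every control liver. A near-copy, Ftl1-ps1, held 14.7 to 44.3 TPM, so reads exchanged between the copies could be a small share of Ftl1. Light chain exceeded heavy chain transcript in every liver, 1.61 to 2.57 times in selenium livers (median 2.11) and 1.36 to 2.13 times in control livers (median 1.66).

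Slc40a1 encodes ferroportin, the iron exporter that hepcidin removes, and is expressed in hepatocytes and strongly in Kupffer cells, the resident macrophages. It ranged from 16.3 to 38.7 TPM in selenium livers (median 28.3 TPM) and from 16.1 to 27.5 TPM in control livers (median 23.0 TPM). Selenium 1, 3 and 6 lay above every control liver and selenium 2 near the lowest. The log2 change was 0.25 (SE 0.20, 95% interval -0.17 to 0.67, adjusted p = 0.522). It was 0.38 without selenium 2, 0.14 without selenium 3, 0.17 without control 5 and 0.08 against controls 1 to 4 alone. The summed level of 11 Kupffer cell markers was 72.9 to 337 TPM in selenium livers and 83.6 to 183 TPM in control livers. All 11 had positive log2 changes, where 4529 of all 9980 tested genes did, and 0 passed the limma test before or after adjustment. Selenium 3 held the highest sum and the highest Slc40a1, and the part of Kupffer cells in Slc40a1 was not tested.

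Fth1, Ftl1, Slc40a1 and Tfrc share the iron-responsive element, a hairpin bound by iron regulatory proteins. Its letters are shown because these 4 mRNAs are read out by the same sensor with opposite outcomes. Each site has 30 bases of the GENCODE M21 transcript (build GRCm38), with T for U, and capitals mark the loop CAGTGN. Of the 4 sites found in the Tfrc transcript the first is shown.
Fth1, bases 657 to 686, before the coding sequence: tttcctgcttcaaCAGTGCttgaacggaac
Ftl1, bases 77 to 106, before the coding sequence: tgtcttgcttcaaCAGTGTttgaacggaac
Slc40a1, bases 89 to 118, before the coding sequence: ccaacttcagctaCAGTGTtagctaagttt
Tfrc, bases 3314 to 3343, after the coding sequence: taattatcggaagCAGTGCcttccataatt
This loop, on a stem of 5 paired bases with an unpaired C below it, was found in the untranslated regions of 4 of the 10 iron genes and in 160 of 21877 protein-coding genes (0.731%). Sites before the coding sequence are known to act on translation, which mRNA levels do not show, and those after it on mRNA stability. None of the 4 transcripts passed the test here, with log2 changes of -0.20 for Fth1, 0.11 for Ftl1, 0.25 for Slc40a1 and -0.29 for Tfrc.

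**Figure D4:**
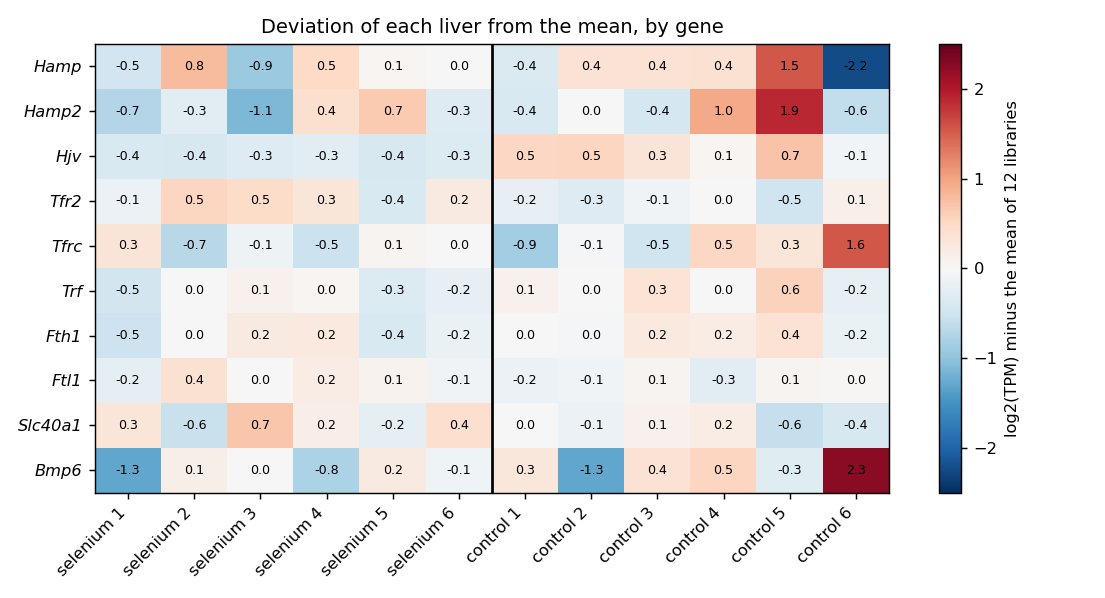
Log2(TPM) of each of the 10 genes in each liver minus the mean of the 12 livers, selenium livers on the left and control livers on the right, as numbers and colour (red above, blue below the mean). Hjv is below its mean in all 6 selenium livers, and control 5 and control 6 hold the extremes of Hamp at 6933 and 504 TPM.

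Read by liver, the genes did not move as 1 block. Control 5 was the highest of 12 livers for Hamp, Hamp2, Hjv, Trf and Fth1 and the lowest for Tfr2 and Slc40a1. Control 6 was the lowest for Hamp and the highest for Tfrc and Bmp6. These livers differed in other genes too: Lcn2, a siderophore-binding protein that rises in inflammation, held 1792 TPM in control 5 and 5.61 TPM in control 6, and haptoglobin (Hp) held 9127 TPM in control 5 and 1804 TPM in control 6. Selenium 3, with the lowest Hamp of its group, held 1410 TPM of Lcn2. The neutrophil and lymphocyte marker sum was 68.9 TPM in selenium 3 and 94.8 TPM in control 5, against 3.52 to 23.6 TPM in the other selenium livers and 9.63 to 19.1 TPM in the other control livers. S100a8 and S100a9 carried it, and Ly6g and Retnlg held at most 0.55 TPM. The cholangiocyte marker sum was 133 TPM in selenium 3 and 269 TPM in control 5, nearly all of it Spp1, while Krt19, Krt7, Epcam and Sox9 held at most 3.25 TPM in any liver. The part of these differences in the hepcidin values was not tested.

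Beyond hepcidin control, 0 of the other iron genes passed limma's adjusted test. All lists together, those of hepcidin signalling and BMP-SMAD targets above included, held 82 genes. Of these, 71 were tested, 35 with positive and 36 with negative log2 changes. Before adjustment, 6 were higher and 6 lower at a p under 0.05, 12 of 71, where 18.5% of all tested genes reached that level. The authors' deposited table calls 8 of the 71 (11.3%, where 9.87% of all tested genes pass in that table). There, Tmprss6, Smad4, Pcsk7, Stat3, Lrp1, Nfs1 and Iba57 are higher in selenium and Smad7 lower. Tmprss6, Smad4, Pcsk7 and Stat3 belong to the 19 tested genes of hepcidin signalling, and Smad7 to the 5 tested BMP-SMAD targets. Nfs1 has the other sign in TPM, at 15.8 ± 2.49 TPM in selenium livers and 16.6 ± 2.41 TPM in control livers (log2 change -0.07, limma adjusted p = 0.813).

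Among 13 tested genes of iron, transferrin and heme uptake (8 positive, 5 negative, median 0.11), Lrp1, the receptor for heme bound to hemopexin, averaged 129 ± 31.1 TPM in selenium livers and 99.4 ± 8.13 TPM in control livers (log2 change 0.34, adjusted p = 0.253). Slc39a14, a transporter of iron not bound to transferrin, averaged 25.3 ± 6.48 TPM in selenium livers and 20.3 ± 3.33 TPM in control livers (0.28, adjusted p = 0.391). The plasma carriers of heme and hemoglobin varied widely within both groups: hemopexin (Hpx) averaged 4438 ± 2402 TPM in selenium livers and 4865 ± 2589 TPM in control livers, and Hp 4436 ± 2459 TPM in selenium livers and 5377 ± 2545 TPM in control livers. Their adjusted p values were 0.874 and 0.712.

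Of 4 tested genes of iron export and oxidation (2 positive, 2 negative, median -0.10), none passed at the adjusted or the unadjusted level. Flvcr1, a heme exporter, averaged 1.21 ± 0.384 TPM in selenium livers and 1.51 ± 0.277 TPM in control livers (adjusted p = 0.450). Abcg2, an efflux pump that also carries porphyrins, averaged 48.1 ± 7.93 TPM in selenium livers and 42.0 ± 9.38 TPM in control livers (adjusted p = 0.525). Ceruloplasmin (Cp), the copper ferroxidase of plasma, averaged 661 ± 188 TPM in selenium livers and 775 ± 258 TPM in control livers (adjusted p = 0.676).

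The sensors of cell iron and the ferritin turnover genes, 7 tested with 2 positive and 5 negative changes (median -0.06), gave no call either. Aco1, which is iron regulatory protein 1 when it lacks its iron-sulfur cluster, averaged 31.0 ± 3.75 TPM in selenium livers and 25.9 ± 4.36 TPM in control livers (log2 change 0.26, adjusted p = 0.297). Ireb2, iron regulatory protein 2, averaged 7.96 ± 2.15 TPM in selenium livers and 8.59 ± 0.899 TPM in control livers (adjusted p = 0.691). Fbxl5, the iron-sensing subunit of the ligase that degrades iron regulatory protein 2, averaged 7.95 ± 1.62 TPM in selenium livers and 8.91 ± 1.23 TPM in control livers (adjusted p = 0.565). Ncoa4, the receptor that carries ferritin to the lysosome, averaged 30.8 ± 4.84 TPM in selenium livers and 32.8 ± 9.02 TPM in control livers (adjusted p = 0.874).

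Heme breakdown, with 4 genes tested and 2 in each direction (median 0.02), gave no call. Hmox1, its inducible first enzyme, averaged 22.5 ± 12.02 TPM in selenium livers and 16.1 ± 7.05 TPM in control livers (log2 change 0.44, adjusted p = 0.499), and selenium 3 alone held 45.41 TPM. Blvrb, a biliverdin reductase, averaged 32.1 ± 8.26 TPM in selenium livers and 41.7 ± 16.9 TPM in control livers (adjusted p = 0.490). Of 19 genes of mitochondrial iron and iron-sulfur clusters, 7 had positive and 12 negative changes (median -0.11). At the unadjusted level 1 was higher and 3 lower, where 7.01% of all tested genes were higher and 11.4% lower. Bola3, an assembly factor for iron-sulfur clusters, averaged 30.3 ± 6.38 TPM in selenium livers and 41.8 ± 6.56 TPM in control livers (-0.46, adjusted p = 0.139). Iba57, which acts late in the assembly of 4-iron clusters, averaged 1.99 ± 0.467 TPM in selenium livers and 1.33 ± 0.255 TPM in control livers (0.35, adjusted p = 0.168).

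**Figure D5:**
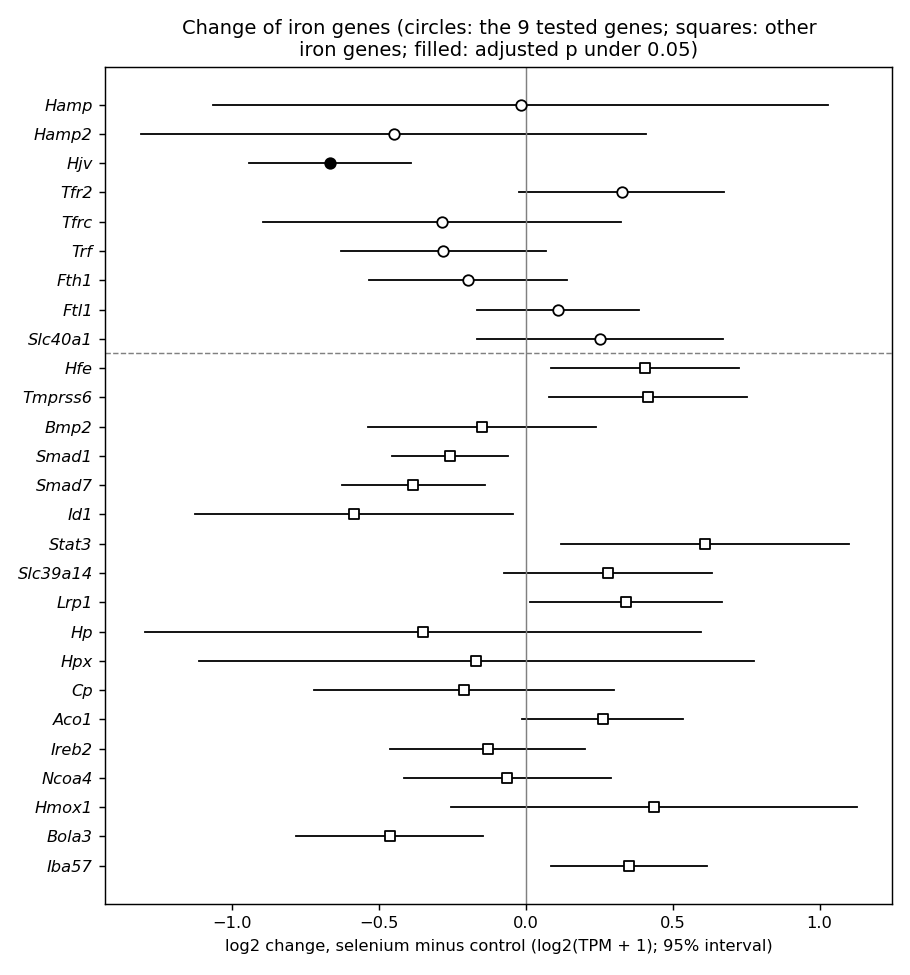
Log2 change of selenium over control on the log2(TPM + 1) scale with 95% intervals from limma, for the 9 tested hepcidin and iron handling genes (circles) and 18 other iron genes (squares). Hjv, at -0.67, is the only filled symbol, which marks an adjusted p under 0.05, and the widest intervals belong to Hamp, Hp and Hpx.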

How the data were processed

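Liver RNA from 6 selenium and 6 control mice was sequenced from frozen tissue, per the labels' protocols. The build GRCm39 and the tools HISAT2 2.1.0, RSEM 1.2.8 and DESeq2 are named, without roles, per the submitters' processing notes. Strand use in counting is not given there. The authors deposited TPM per gene and library. TPM holds shares of a fixed total, so it keeps no depth or counting error. The deposited table also holds the authors' log2 fold change of control over selenium, whose sign was turned here, and the authors' own p-value columns. Fold change and p in that table may come from other values than the TPM, which was not tested.

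Genes with at least 1 TPM in 6 or more of 12 libraries (9980 of 57010) were tested on log2(TPM + 1), selenium minus control, with limma 3.58.1 in R 4.3.3 (empirical Bayes with intensity trend, two-sided, Benjamini-Hochberg threshold 0.05). This scale understates changes of low genes. Relations used permutation tests with 100000 resamples (scipy 1.17.1). Promoter and transcript letters came from RefSeq GRCm38.p6 and GENCODE M21, another build than the authors' files. The single-library tables equalled the series table in 100% of values. The procedure was tested on simulated data.

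The genes and lists were chosen with earlier results of these data known. Text names followed a rule: the 10 genes, the 2 smallest p of each list, a set of 13 iron genes, Dbp and the 5 genes most like Hamp. Lcn2, Ftl1-ps1, Stat3, Smad4, Pcsk7 and Nfs1 were named after their values were seen. Same-numbered livers deviated together with correlations of -0.136 to 0.107, so numbers only name mice. Alternatives were other pseudocounts, filters, scalings and limma settings, an exact permutation test, a replicate block, the clock state, and leaving out each liver. A transcript length correction and controls 1 to 4 alone were added after seeing the data.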

Additional observations from a re-analysis of the deposited data

Results flagged for a closer look

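In 4 of 62 groups of 6 livers (31 iron genes in both groups), 1 liver stood far from the other 5, with a gap to its nearest neighbour over 0.625 of the group's range. Chance gives this in about 1 of 20 groups. Tfrc held 15.19 TPM in control 6, against 2.83 to 7.45 TPM in the other controls. Bmp6 held 0.82 TPM in control 6, against 0.07 to 0.25 TPM in the others, all below the filter on low values. Id1 held 12.21 TPM in control 5, against 2.81 to 4.82 TPM in the others. Hmox1 held 45.41 TPM in selenium 3, against 11.13 to 22.55 TPM in the other selenium livers. Gaps over range were 0.626, 0.760, 0.786 and 0.667 in that order.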

How the results depend on the processing

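Of 834 values of 30 named genes under alternatives, 792 kept direction and side of the threshold, 23 changed sign (6 genes) and 19 lost the call with the same sign, all of them Hjv. Hjv had an adjusted p of 0.118 with no filter, 0.0540 with median-of-ratios scaling, 0.0591 with quantile normalization, 0.0615 with the first clock component, 0.0612 in low Dbp livers and 0.0518 with the length correction. In these settings 0 iron genes of the 10 passed downward, and the log2 change of Hjv was -0.67 to -0.59. Without 1 liver the count was 0 to 1. The replicate block, which pairs livers by a number that only names them, gave an adjusted p of 0.0971 for Hjv, 0 lower calls among the 10 genes, and 0 higher and 3 lower over all genes. In low Dbp livers 1 gene of the lists, Stat3, was called higher, a gene named after its value was seen.

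Over all genes, 2 higher and 31 lower calls became 1 and 39 (pseudocount 0.1), 0 and 1 (no filter), 1 and 23 (5 TPM filter), 53 and 41 (median-of-ratios), 6 and 184 (without mitochondrial-encoded genes), 4 and 52 (robust), 114 and 141 (array weights), 1 and 19 (clock component), 34 and 13 (low Dbp), 11 and 36 (length correction) and 10 and 27 (controls 1 to 4). The exact permutation test cannot give a p below 0.00216, which Hjv reached (adjusted 0.133). For genes at that p alone to pass, at least 433 would have to reach it, and 163 did. Genes at larger p also count in the adjustment, and the test gave 0 calls in each direction. With p in such coarse steps, these 0 calls are a weak guide to stability. Quantile normalization left 10 lower. Without 1 liver there were 0 to 56 higher and 7 to 115 lower. The causes were not tested.

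The log2 change of Hamp changed sign to 0.0637 (median-of-ratios), 0.0241 (quantile), 0.00593 (array weights), 0.105 (clock component) and 0.180 (length correction), and ran from -0.466 to 0.290 without 1 liver. Ncoa4 became 0.0154 (median-of-ratios) and 0.0764 (array weights), and ran from -0.136 to 0.0560 without 1 liver. Hpx became 0.0679 (quantile), 0.0256 (clock component) and 0.311 (low Dbp), and ran from -0.440 to 0.118 without 1 liver. Tfrc became 0.0398 (array weights) and 0.0466 (controls 1 to 4), and in low Dbp livers Fbxl5 became 0.0284 and Hp 0.0963. Without the 2 livers farthest from the median, r became 0.107 for Hamp with Bmp6, 0.0739 for Hamp with Tfr2 and -0.119 for Hamp with Id1. Of the 21 other named genes, 17 had a log2 change that moved over 1.5 times under at least 1 alternative. TPM gives no depth, so the precision of low genes such as Bmp6 is unknown.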
